A study of Drosophila melanogaster with 2 samples.

Results

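Heat shock protein genes encode molecular chaperones, and 10 of them were followed here through the binding sites of the CG9932 protein in Drosophila melanogaster embryos. The genes were Hsp22, Hsp23, Hsp26, Hsp27, Hsp67Ba, Hsp67Bc, Hsp68, Hsp83, Hsc70-3 and Hsc70-4, taken by symbol from the 13945 protein-coding genes on the chromosome arms. A gene was counted as bound when a peak summit of the conservative set lay within 500 bp of one of its transcription start sites (TSS). The data came from chromatin immunoprecipitation followed by sequencing (ChIP-seq) on whole embryos aged 8 to 24 h of a strain that carries a CG9932-eGFP insertion, with an antibody against GFP. All chromatin was from this 1 genotype, with no treatment named in the labels, and the 2 samples were labelled as biological replicates of 1 group. Whole embryos mix all cell types, so a peak does not say in which cells the protein was bound. No heat shock is mentioned in the labels, and no control sample was analysed here.

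A heat shock raises transcription of the inducible heat shock genes through the heat shock factor, which binds heat shock elements, inverted repeats of the unit GAA, in their upstream DNA. Before heat shock the best-studied of these promoters in flies already hold the GAGA factor and a paused RNA polymerase II. The cognate genes, named Hsc70, and the Hsp90 gene Hsp83 are transcribed without heat, Hsp83 being also raised by it, and some small heat shock genes are switched on by ecdysone and during development. Hsp22, Hsp23, Hsp26, Hsp27, Hsp67Ba, Hsp67Bc and Hsp68 were taken as inducible, and Hsp83, Hsc70-3 and Hsc70-4 as constitutive.

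Of the 10 heat shock genes, 6 were bound in the conservative set, namely Hsp22, Hsp26, Hsp27, Hsp83, Hsc70-3 and Hsc70-4. Of all protein-coding genes 29.9% were bound by the same rule (95% Wilson interval 29.1 to 30.6, counting error only). Adding summits anywhere in the gene left the count of heat shock genes at 6, against 35.1% of all genes. By class, 3 of 7 inducible and 3 of 3 constitutive genes were bound. The 6 bound genes held 8 summits. The strongest lay upstream of Hsp27, followed by those at Hsc70-4 and Hsp83. Hsp23, Hsp67Ba, Hsp67Bc and Hsp68 had no summit that met the rule.

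The DNA under these summits is shown for the strongest site, at Hsp27, for Hsp26, the only window with GAGAG, and for both sites of Hsc70-4, which held heat shock element pieces. Each window is 201 bases, centred on the summit, read 5′ to 3′ on the strand of the gene from the RefSeq Release 6 genome (dm6). Capitals mark matches on either strand to GAANNTTC or TTCNNGAA (2 inverted GAA units of a heat shock element), GAGAG (the GAGA factor), TATAAA (the TATA box), TATCGATA (the DNA replication-related element) or GGTCACACT (the core of Motif 1), where N is any base and overlapping matches run together. The windows are Hsp27 at chr3L:9383820-9384020 (plus strand), Hsp26 at chr3L:9377463-9377663 (minus strand), the upstream site of Hsc70-4 at chr3R:15242433-15242633 and its intronic site at chr3R:15243691-15243891 (both plus strand).
Hsp27: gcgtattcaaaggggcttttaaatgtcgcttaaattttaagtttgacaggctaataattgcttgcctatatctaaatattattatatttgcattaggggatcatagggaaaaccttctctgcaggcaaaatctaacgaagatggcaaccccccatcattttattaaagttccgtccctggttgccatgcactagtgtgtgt
Hsp26: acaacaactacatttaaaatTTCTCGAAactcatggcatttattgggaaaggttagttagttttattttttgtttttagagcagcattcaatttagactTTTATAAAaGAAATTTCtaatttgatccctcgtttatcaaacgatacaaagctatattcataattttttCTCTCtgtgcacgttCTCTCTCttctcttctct
Hsc70-4 upstream: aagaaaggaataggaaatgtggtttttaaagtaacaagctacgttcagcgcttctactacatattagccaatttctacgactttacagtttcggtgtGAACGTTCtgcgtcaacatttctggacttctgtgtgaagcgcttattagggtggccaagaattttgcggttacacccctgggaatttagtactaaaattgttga
Hsc70-4 intron: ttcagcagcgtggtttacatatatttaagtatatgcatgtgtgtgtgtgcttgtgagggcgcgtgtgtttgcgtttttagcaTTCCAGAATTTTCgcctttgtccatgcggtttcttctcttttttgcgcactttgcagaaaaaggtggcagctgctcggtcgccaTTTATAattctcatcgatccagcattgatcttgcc

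The Hsp27 window held no match to any of these motifs, although it lay under the strongest summit of the 10 genes. The Hsp26 window held one match to each heat shock element pair, TATA box matches and GAGAG matches in the bases nearest the gene. The upstream Hsc70-4 window held 1 pair, GAANNTTC, close to its centre. The intronic Hsc70-4 window held a run of 3 inverted GAA units, the only window of the 8 with such a run.

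For contrast, the 150 bases upstream of the TSS are shown for Hsp23 and Hsp68, the 2 unbound genes with a full run of 3 units in the 500 bp upstream. They are Hsp23 at chr3L:9381732-9381881 (plus strand) and Hsp68 at chr3R:24057311-24057460 (minus strand), with the same use of capitals.
Hsp23: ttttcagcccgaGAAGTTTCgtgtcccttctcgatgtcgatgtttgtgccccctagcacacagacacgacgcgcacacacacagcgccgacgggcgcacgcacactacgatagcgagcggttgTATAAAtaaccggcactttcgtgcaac
Hsp68: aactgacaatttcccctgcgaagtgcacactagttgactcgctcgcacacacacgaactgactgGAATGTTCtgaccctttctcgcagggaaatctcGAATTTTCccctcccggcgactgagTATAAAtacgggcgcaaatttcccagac

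Both promoters carry a TATA box match just before the TSS, with at least 1 heat shock element pair upstream of it. In Hsp68 the 3-unit runs lie farther upstream, with 3 overlapping matches that start at -182, -177 and -172 bp, where negative is upstream. In Hsp23 the run starts at -405 bp.

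Hsp27 (FBgn0001226, 3L 9384063 to 9385694, plus strand) encodes a small heat shock protein, a class of chaperones that hold unfolding proteins in a soluble state. Its peak spanned 3L 9383765 to 9384062, between genes, with the summit at -143 bp from the only TSS. The signal, the value the authors' peak caller gave to the peak, was 948 in the conservative set, where it ranked 296 of 6829 peaks, in the top 4.33%. In the set called from each replicate alone the peak had a signal of 507 in replicate 1, rank 339 of 6036, and 444 in replicate 2, rank 253 of 4549. The summits of the replicates lay at -163 bp (replicate 1) and -154 bp (replicate 2). Hsp27 was thus near the top of both replicates' lists, with both summits within a short stretch upstream of the TSS. Signals were not compared between replicates, since the depth of each library is unknown.

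Hsp26 (FBgn0001225, 3L 9376418 to 9377427, minus strand), another small heat shock gene and one also expressed in ovaries, had its summit at -136 bp from the first of 2 TSS. The peak, 3L 9377378 to 9377747, had a signal of 197 and ranked 2801 in the conservative set. Its signal was 119 in replicate 1, with the summit at -131 bp, and 86.1 in replicate 2, with the summit at -118 bp. The ranks of 2816 (replicate 1) and 2717 (replicate 2) placed it in the middle of each list, far below Hsp27.

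Hsp22 (FBgn0001223, 3L 9372931 to 9374964, plus strand), whose small heat shock protein is found in mitochondria, had a peak at 3L 9373359 to 9373728. The signal was 198, rank 2784, with 117 in replicate 1 (rank 2857) and 77.8 in replicate 2 (rank 3012). Hsp22 has 2 annotated TSS, and the summit lay between them, 613 bp downstream of the first and at -453 bp from the second. It fell in the 5′ UTR of the long Hsp22 transcript, which is also the 3′ UTR of CG4456, a gene that shares this TSS and whose older symbol is Hsp67Bb. At 453 bp the summit was near the limit of the rule, and within 200 bp of a TSS Hsp22 was not bound.

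Among the constitutive genes, Hsc70-4 (FBgn0266599, 3R 15242687 to 15246614, plus strand) stood first. It encodes the main cytosolic Hsp70 cognate, which among other tasks strips clathrin from vesicles. Its upstream peak, 3R 15242389 to 15242651, had its summit at -154 bp and a signal of 550, rank 755. The replicates gave it 294 (replicate 1, rank 862, summit at -147 bp) and 252 (replicate 2, rank 657, summit at -184 bp). This peak was in the stronger part of both replicates' lists. The TSS of tefu, which encodes the ATM kinase and runs the other way, lies 451 bp from that of Hsc70-4, and the summit counted for both genes. The data do not say to which of the 2 promoters it belongs.

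The second Hsc70-4 peak, 3R 15243606 to 15243975, lay in an intron, 1104 bp downstream of the first of 6 TSS and at -428 bp from the fifth. It was weak, with a signal of 101 and rank 5141, and its score of 853 was close to the lowest score of the set, 830. Replicate 1 held it with a signal of 53.3, rank 5519. Replicate 2 did not hold it, although a summit of signal 34.3 and score 334 was in that replicate's ranked list, which keeps peaks under the threshold. It was also the window with the run of 3 GAA units.

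Hsp83 (FBgn0001233, 3L 3192969 to 3197059, plus strand) encodes the cytosolic Hsp90 chaperone, which keeps kinases and hormone receptors in an active shape. Its first peak, 3L 3193010 to 3193220, had the summit 120 bp downstream of the first TSS, in the 5′ UTR, with a signal of 410 and rank 1182. Replicate 1 gave 197 (rank 1558), with the summit at -84 bp from the second TSS, and replicate 2 gave 203 (rank 935), with the summit where the conservative one lay. The second peak, 3L 3194176 to 3194357, lay in the intron 1297 bp downstream of the first TSS. It was nearly as strong as the first, with a signal of 363 (rank 1388), and with 196 in replicate 1 (rank 1567) and 166 in replicate 2 (rank 1264). Hsp83 was the only heat shock gene with 2 peaks that were each in both replicates' sets. Only the first counted for the promoter rule.

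Hsc70-3 (FBgn0001218, X 11801696 to 11807117, minus strand) encodes BiP, the Hsp70 of the endoplasmic reticulum. Its peak, X 11806260 to 11806629, was the weakest of the promoter peaks that defined a bound gene, with a signal of 138 and rank 3933. The summit lay at -92 bp from the second of 4 TSS, in an intron, 672 bp downstream of the first. Replicate 1 held it with 107, rank 3115, and replicate 2 did not. In the ranked list of replicate 2 the strongest summit near a Hsc70-3 TSS had a signal of 38.3 and a score of 62, far below the threshold. The ranked list of the conservative comparison had further summits at -153 bp from the first TSS (signal 75.8, score 694) and 1849 bp downstream of it (signal 61.3, score 685), both short of the threshold.

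Most of the bound sites were also in the sets called from each replicate alone. The conservative set was itself drawn from these 2 replicates by how well ranks repeat, so this is no separate check. Of the 8 summits, 6 lay in peaks of both replicates' own sets, and 2, at Hsc70-3 and the intron of Hsc70-4, in the set of replicate 1 only. Of all 6829 conservative peaks, 4004 (58.6%) were in both replicates' sets. By replicate 1's own set 6 of the 10 genes were bound, against 30.1% of all genes. By replicate 2's own set 5 were bound, against 23.9% of all genes. Inducible genes numbered 3 of 7 in each replicate, and constitutive genes 3 of 3 in replicate 1 and 2 of 3 in replicate 2.

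The 4 unbound genes were not empty of signal, but their ranked summits within 500 bp of a TSS did not pass the threshold of the authors. That threshold is on the irreproducible discovery rate (IDR), which grades how well ranks repeat between replicates, and the sets kept peaks at an IDR of about 0.01. Hsp23 (FBgn0001224, 3L 9381882 to 9382765, plus strand), a small heat shock gene also induced by ecdysone, had its strongest ranked summit at -153 bp, with a signal of 70.2 and a score of 169. Replicate 1 gave 42.0 at -156 bp and replicate 2 gave 22.9 at -183 bp. The position was close to that of the Hsp27 and Hsp26 summits, but the values fell under the threshold. The nearest conservative summit was that of Hsp27, 2038 bp away.

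Hsp67Bc (FBgn0001229, 3L 9371511 to 9372497, minus strand), a small heat shock gene whose product acts in autophagy, had a ranked summit 20 bp downstream of its TSS. It had a signal of 62.1 and a score of 72, with 49.5 in replicate 1, 87 bp downstream, and 15 in replicate 2, 19 bp downstream. The conservative peak past the end of the gene, with a signal of 258, lay at the promoter of its neighbour Fdx1. Hsp67Ba (FBgn0001227, 3L 9377802 to 9379534, minus strand), a less studied member of the family, had 26.8 (score 117) at -366 bp, the lowest of the 10 genes in the conservative comparison. Its strongest ranked summits in the replicates lay elsewhere, with 21.9 in replicate 1, 452 bp downstream of the TSS, and 17.0 in replicate 2, at -438 bp. In replicate 1 Hsp68 was lower, and in replicate 2 Hsp67Bc and Hsp68 were lower. Hsp68 (FBgn0001230, 3R 24055080 to 24057310, minus strand) encodes an inducible Hsp70 and was the only inducible gene outside the cluster on 3L. Its strongest ranked summit near the TSS, 459 bp downstream, had 35.7 (score 155), with 21.6 in replicate 1 and 16.0 in replicate 2, and its nearest conservative summit lay 5696 bp away.

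**Figure D1:**
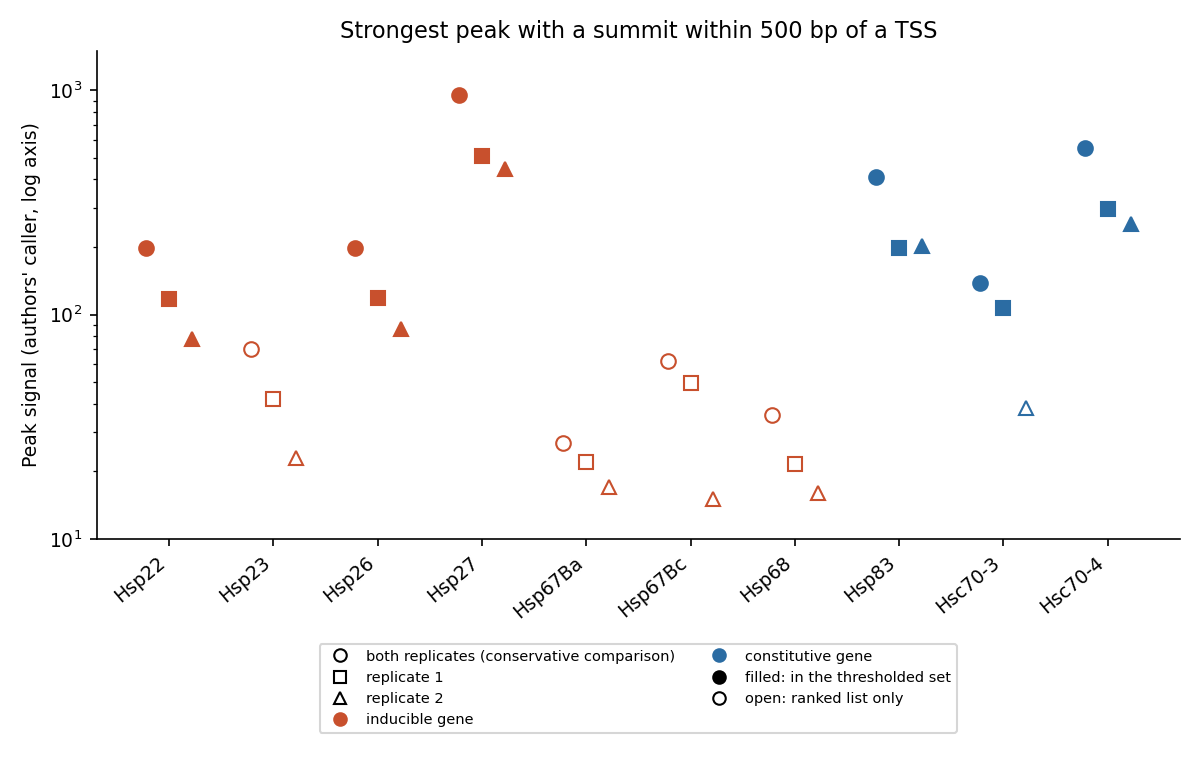
Signal (log axis) of the strongest peak with a summit within 500 bp of a TSS for each of the 10 genes, in the ranked list of the conservative comparison (circles) and of each replicate (squares and triangles). Red marks inducible and blue constitutive genes, filled points passed the authors' threshold and open points did not. Hsp27 lies highest in each list, at 948, 507 and 444, and Hsp23, Hsp67Ba, Hsp67Bc and Hsp68 have open points only.

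Set among all genes, the heat shock genes spread over most of the range of promoter signal, as the plot of promoter signal among all genes shows. All 10 had a ranked summit within 500 bp of a TSS. The median of their strongest signals was 168, against 66.0 over the 10188 protein-coding genes with such a summit. Among the bound genes alone the medians were closer, 304 for the 6 heat shock genes and 264 for all 4163. The median was 70.2 in the 7 inducible and 410 in the 3 constitutive genes. These values are given as a description with no test.

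The order of the genes by this signal was Hsp27, Hsc70-4, Hsp83, Hsp22, Hsp26, Hsc70-3, Hsp23, Hsp67Bc, Hsp68 and Hsp67Ba. A stronger promoter signal than that of Hsp27 was found at 2.56% of the 13945 genes, and at 2.95% in replicate 1 and 2.15% in replicate 2. For Hsc70-4 this share was 6.43%, and 7.23% in replicate 1 and 5.43% in replicate 2. For Hsp83 it was 9.48%, with 12.2% and 7.52% in replicates 1 and 2. Hsp27, Hsc70-4 and Hsp83 kept this order in both replicates. Hsp22 and Hsp26 could not be ordered, at 19.1% and 19.2%, and the replicates' values for them lay between 18.3% and 19.8%. Hsc70-3 had 24.3%, with 21.0% in replicate 1 and 31.1% in replicate 2. The 4 unbound genes ran over 35% to 62.5% in the conservative comparison, 32.8% to 55.3% in replicate 1 and 48.3% to 61.2% in replicate 2. Their order was not the same in the replicates: Hsp67Bc led them in replicate 1 and came last in replicate 2.

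**Figure D2:**
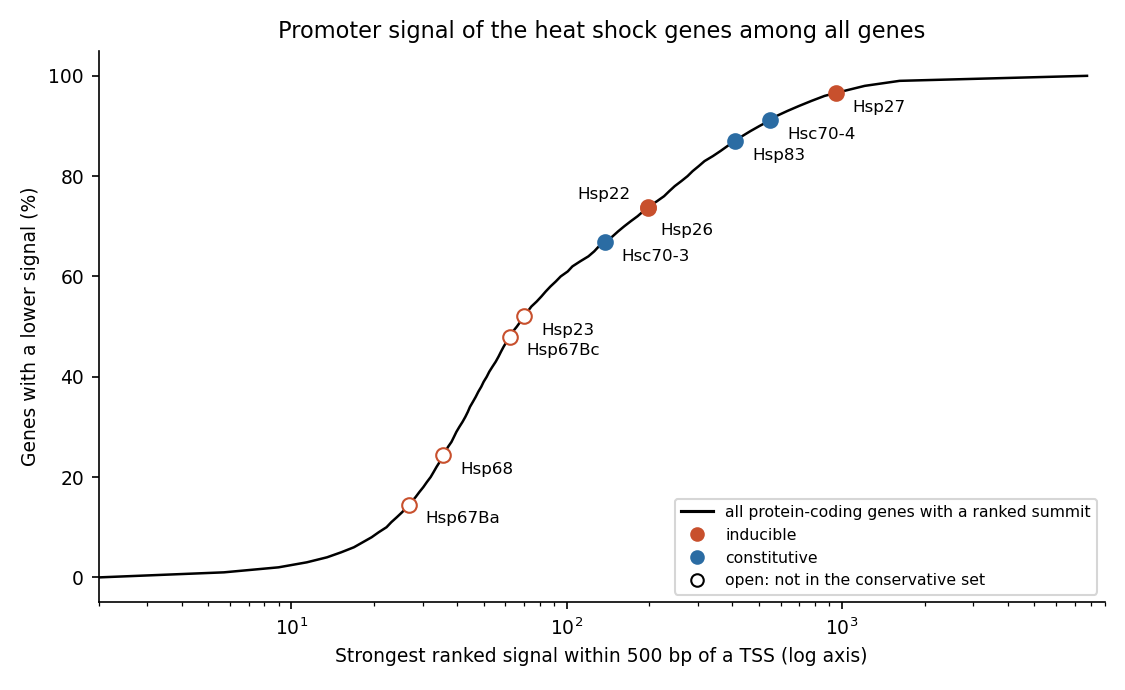
Share of the 10188 protein-coding genes with a ranked summit within 500 bp of a TSS that had a lower signal (vertical axis, percent) against that signal (horizontal log axis), with the 10 heat shock genes marked. Hsp27 lies above 96.5% of these genes and Hsp67Ba above 14.5%, and the open points of the 4 unbound genes lie below all 6 filled points.

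The classes also differed in how many TSS and how much length they offered to a summit, and the part of this in the count of bound genes was not tested. Hsp83 has 2 annotated TSS, Hsc70-3 has 4 and Hsc70-4 has 6, whereas the inducible genes have 1 or 2, and all 4 unbound genes have 1. Among all protein-coding genes, 24.0% of those with 1 TSS were bound, 41.1% of those with 2, 56.7% of those with 3 to 6 and 70.2% of those with 7 or more. The median length was 1632 bp in the inducible and 4091 bp in the constitutive genes. With the first TSS alone, 4 of the 10 genes were bound, Hsp26, Hsp27, Hsp83 and Hsc70-4. No share of all genes by this rule is given, so this count has no background to stand beside.

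The positions of the summits differed from gene to gene. Over all 3467 promoter summits of the series the middle one lay at -75 bp, and the quartiles were -144 and -23 bp. Hsp27 (-143 bp), Hsp26 (-136 bp), Hsc70-4 (-154 bp) and the ranked summit of Hsp23 (-153 bp) lay near or just beyond the far quartile. Hsc70-3, at -92 bp from its second TSS, lay within the quartiles, and Hsp83 was the only bound gene with its promoter summit downstream of the nearest TSS.

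**Figure D3:**
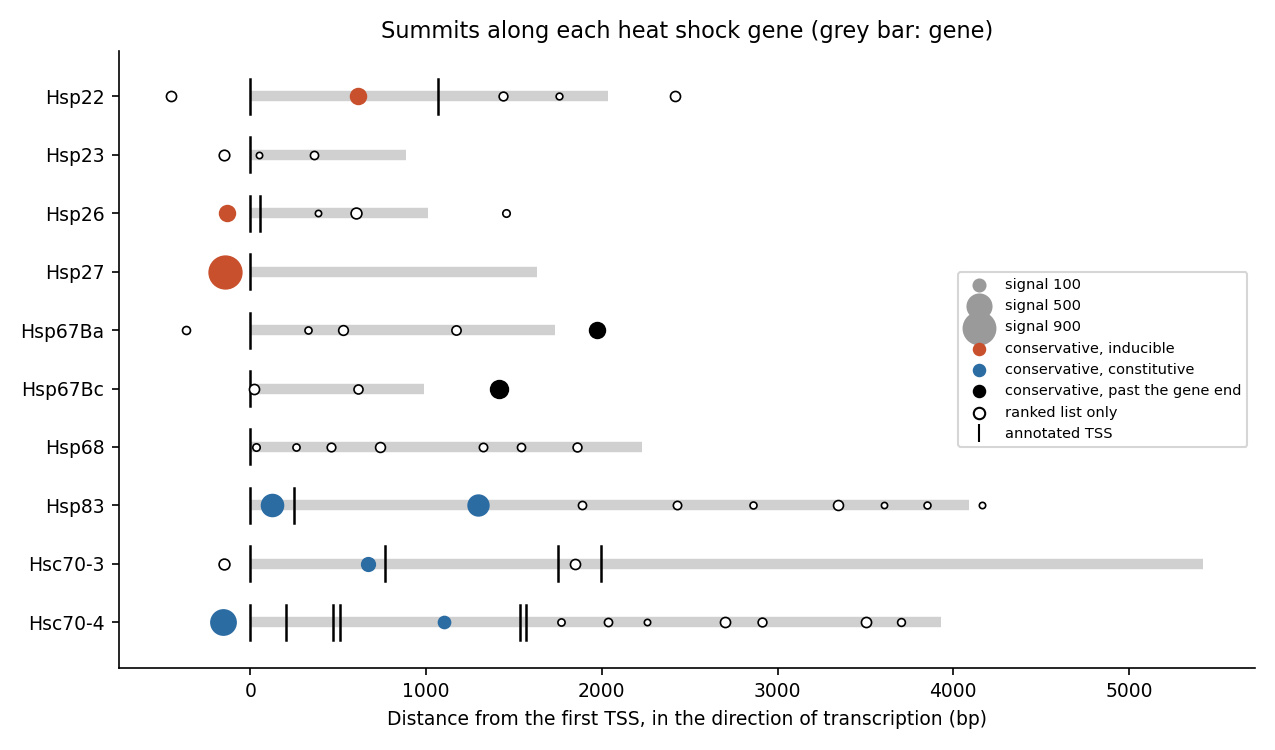
Ranked summits of the conservative comparison along each gene, drawn from the first TSS in the direction of transcription (bp), with point area rising with signal, grey bars for genes and vertical ticks for TSS. Filled coloured points are conservative summits of bound genes, black points are conservative summits past the end of an unbound gene, and open circles are in the ranked list only. Hsp26, Hsp27 and Hsc70-4 carry a filled point just upstream of the first TSS, whereas Hsp22, Hsc70-3 and Hsp83 carry theirs inside the gene. Hsc70-4 also carries a weaker filled point inside the gene, at 1104 bp.

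Of the 7 inducible genes, 6 lie side by side in a cluster on 3L (9371511 to 9385694, 14.2 kb) with 2 further protein-coding genes, CG4456 and CG4461. Binding within the cluster was uneven. It held 3 conservative summits, those of Hsp22, Hsp26 and Hsp27, and 3 in each replicate's own set. That is 212 per Mb, against 49.7 per Mb over the whole of 3L, from only 3 summits. The cluster was cut at gene ends and packs 8 protein-coding genes into 14.2 kb. The part of this in the density was not tested. By gene, 3 of these 8 were bound, against 29.9% of all protein-coding genes. Hsp22 and Hsp26 had nearly equal signals of 198 and 197, while Hsp27 had 948. Hsp67Ba, Hsp67Bc, Hsp23, CG4456 and CG4461 had no promoter summit. Hsp23 and Hsp27, neighbours on the same strand, thus differed, with signals of 70.2 and 948 at nearly the same distance from their TSS. The ranked list held 18 summits in the cluster, 16 in replicate 1 and 15 in replicate 2.

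**Figure D4:**
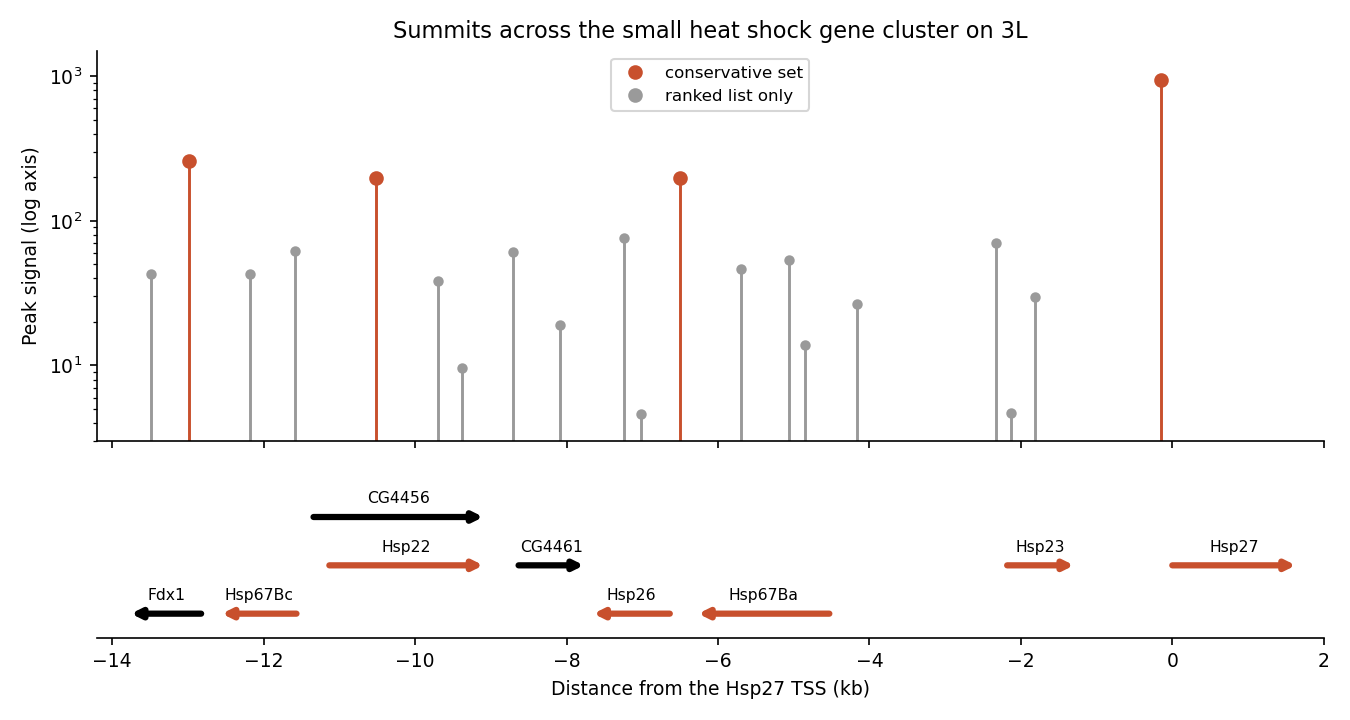
Signal (log axis) of ranked summits across the heat shock gene cluster on 3L against distance from the Hsp27 TSS (kb), with genes drawn as arrows in the direction of transcription (red for the heat shock genes followed here, black for neighbours). Red stems are in the conservative set and grey stems in the ranked list only. Red stems stand at -10519 bp (Hsp22), -6500 bp (Hsp26) and -143 bp (Hsp27), and a further one at -12982 bp belongs to Fdx1.

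The summit windows of the heat shock genes were searched for the motifs of heat shock and core promoters and set beside all 6790 summits on the arms. A GAANNTTC pair was in 4 of 8 windows, those of Hsp26, the first Hsp83 site and both Hsc70-4 sites, against 5.67% of all summits. It was in 6.19% of the 201 bp windows that lie upstream of the 19253 protein-coding TSS and end at the TSS. TTCNNGAA was in 2 of the 8 summit windows, Hsp26 and the Hsc70-4 intron, against 4.58% of all summits. A run of 3 units was in 1, the Hsc70-4 intron, against 0.309% of all summits. GAGAG was in 1 window, that of Hsp26, against 23.6% of all summits, and TATAAA in 2 windows against 29.0%. TATCGATA, found in 5.43% of all summits, and GGTCACACT, found in 2.37%, were in none of the 8. Pairs and runs overlap, so these counts are not separate. A match says only that the letters are there.

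In the 500 bp upstream of the TSS the motifs differed in how they lay over bound and unbound genes. A run of 3 GAA units was upstream of Hsp68, Hsp23 and, for 4 of its TSS, Hsc70-4, against 0.738% of all TSS, so it was present in 2 unbound genes and 1 bound gene. Hsp68 had 4 GAANNTTC matches, a number reached at 0.0364% of all TSS. TATAAA on the strand of the gene, starting 35 to 20 bp before a TSS, was found at 8 of the 21 TSS of the heat shock genes, at -27 to -30 bp, against 6.22% of all TSS. By gene, these were 8 of the 10, against 8.54% of all protein-coding genes. The exceptions were Hsp67Ba, which was unbound, and Hsc70-3, which was bound. GAGAG matches were most numerous upstream of the bound genes Hsp22, Hsc70-3 and Hsp26, a description with no test. The highest number of matches before a TSS was 12 at Hsp22, 11 at Hsc70-3, 9 at Hsp26, 3 at Hsp27, 2 at Hsc70-4 and 1 at Hsp83, against 1 at Hsp23, 1 at Hsp67Bc, and 0 at Hsp67Ba and at Hsp68. At least 3 matches were found at 11.9% of all TSS, and at least 1 at 44.5%. Overlapping matches in a GA repeat were each counted, here and over all TSS, so these are not numbers of separate sites. The bound genes other than Hsp27 have more than 1 TSS and so more windows, and the part of this in the counts was not tested. At Hsc70-3 the second TSS, next to the summit, had 0 matches, and the other TSS had 8, 11 and 10. At the TSS nearest their promoter summits, Hsp83 and Hsc70-4 had 1 match each, as many as the unbound Hsp23 and Hsp67Bc. Hsp22, Hsp26 and Hsp27 had their highest number at that TSS. Of the summit windows, only that of Hsp26 held a match.

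Other chaperone genes, from a list by symbol, were also bound in part. Of 41 such genes, 17 were bound, with a median signal of 244, against 29.9% of all genes. The count was 20 in replicate 1 (30.1% of all genes) and 13 in replicate 2 (23.9% of all genes). The 41 include the 6 inducible Hsp70 genes, counted as unbound in each list although nothing is read from their lack of peaks. The Hsp40 genes, whose J-domain proteins hand clients to Hsp70, were bound in 9 of 10 cases. They were led by P58IPK of the endoplasmic reticulum (signal 727), CG5001 (503) and mrj (423), and jdp was the exception. DnaJ-1, a cytosolic Hsp40, had 155 and met the promoter rule in replicate 2's own set only. Replicate 1's ranked list did have a summit with a score of 1000 in DnaJ-1 or within 500 bp of the gene. Csp, a chaperone of synaptic vesicles, had 152 and met the promoter rule in replicate 1's own set only. The other bound Hsp40 genes were DnaJ-H (400, a summit also near Sirt1), Droj2 (314, also near mRpS21), DnaJ-60 (235, also near CG42568 and spag) and Tpr2 (203). Both other Hsp90 genes were bound, Gp93 of the endoplasmic reticulum with 277 and Trap1 of mitochondria with 184, the Trap1 site also near Bap170. Of 4 further Hsp70 cognates 2 were bound, the mitochondrial Hsc70-5 (565, a summit also near CG8531) and Hsp110 (302), which exchanges the nucleotide of Hsp70.

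The remaining chaperone groups had fewer bound genes in the conservative set. Of 6 other small heat shock genes, CG14207 (103) and l(2)efl (97.1) were bound, both in replicate 1's own set only. Of 4 Hsp60 genes, only Hsp60A was bound (244), the mitochondrial chaperonin. Of 9 co-chaperone genes, 1 was bound, stv (104), the BAG-domain partner of Hsp70. This count differed by replicate, with 5 of the 9 in the own set of replicate 1 (stv, p23, CG1416, STUB1 and Sgt) and 0 in that of replicate 2. None of the 6 inducible Hsp70 genes was bound. Their copies are nearly identical. Whether their reads could be assigned to 1 copy was not tested, and nothing is read from the absence of peaks there.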

How the data were processed

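ChIP-seq with anti-GFP was run on 2 biological replicates of CG9932-eGFP embryos. The authors deposited 8 peak lists on dm6: ranked lists and sets past an IDR threshold for replicate 1, replicate 2, the conservative and the optimal comparison. For the peak caller, aligner and read depth nothing is given in the sources used here. The deposited score is the authors' IDR score, which starts at 830 in the sets. The deposited −log10 columns hold the IDR. The deposited signal is the value of the authors' caller per peak, used only within a list, to rank and describe peaks. A further 26 value columns were not used.

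Summits were counted from 1 and assigned to genes of Ensembl release 115 (BDGP6.54, dm6 coordinates) within 500 bp of a TSS or in the gene. A replicate held a summit when its own set had a peak over it. Sequence came from the RefSeq Release 6 genome. Motifs were sought on both strands up to 100 bp from a summit. Other settings tried were 200 and 1000 bp around the TSS, the stronger peaks by signal, the optimal set, each replicate's own set, peak centres, first TSS only and motif windows of 50 bp. The genes, lists and motifs were chosen with earlier results of these data known, so no p-value is given. All 10 genes are described, and the other chaperone genes followed a symbol list of 43, of which 2 matched by older symbol, 1 matched none and 1 is not reported here. With 2 replicates no SD is given. The counting steps recovered all planted matches in simulated data. The tools were matplotlib 3.10.9, scipy 1.17.1, pandas 2.3.3, numpy 2.4.6 and Python 3.11.15.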

Additional observations from a re-analysis of the deposited data

How the results depend on the processing

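The count of bound heat shock genes was 5 within 200 bp of a TSS (without Hsp22), 6 within 1000 bp, 6 in the optimal set, 5 among the stronger peaks by signal (without Hsc70-3), 6 by peak centre and 4 with the first TSS alone (without Hsp22 and Hsc70-3). By each replicate's own set it was 5 to 6. The share of all genes bound was 23.2% within 200 bp, 33.5% within 1000 bp, 31.4% in the optimal set and 21.6% among the stronger peaks, and 23.9 to 30.1% by the sets of single replicates. For the first TSS alone no share of all genes is given. With Hsp83 put among the inducible genes, 4 of 8 inducible and 2 of 2 constitutive genes were bound. Motif windows of 50 bp either side gave 6 pairs of motif and summit in place of 10. GAGAG was then in 0 of 8 windows, against 10.8% of all summits. GAANNTTC was in 3 (without Hsp83), against 2.68%, and TTCNNGAA in 1 (the Hsc70-4 intron), against 2.28%. TATAAA was in 1 (Hsp26), against 15.6%. The run of 3 units stayed in the Hsc70-4 intron window, against 0.147% of all summits. For the other chaperone genes, alternatives chosen after the data were seen gave 12 to 20 bound genes.

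No paired analysis was possible because the series holds 1 group. Depth is unknown, so a gene without a peak is not shown to be free of the protein, and counts over 10 genes or 8 summits are small. Where promoters lie close together, as at Hsc70-4 and tefu, both were credited with the summit.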
